A study of Homo sapiens with 20 samples.

Results

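The genes described here encode the subunits of the mitochondrial respiratory chain and ATP synthase that are made from nuclear DNA. They were taken from the count files by symbol (the NDUFA, NDUFB, NDUFC, NDUFS and NDUFV series, SDHA to SDHD, every symbol that starts with UQCR, 11 named COX genes and the symbols from ATP5A to ATP5L), a rule that reads only the symbols. This gave 79 of the 54435 features in the files: 37 of complex I, 4 of complex II, 10 of complex III, 11 of complex IV and 17 of complex V. After edgeR's filter on low counts, 78 were tested; ATP5J2-PTCD1, a readthrough of ATP5J2 into its neighbour, had 0 counts in all 12 libraries. Among the 78, UQCRBP1 and ATP5EP2 are pseudogenes, UQCRHL is a near copy of UQCRH, and ATP5L2 is a paralog of ATP5L, so the way reads were divided between these copies is uncertain.

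The series asked how loss of DIGIT, a long noncoding RNA, affects endoderm differentiation of H1, an established human embryonic stem cell line. Poly(A) RNA was sequenced from 6 groups of 2 libraries: unedited H1 cells (WT) and the DIGIT knockout clones KO1 and KO2, each on day 0, as undifferentiated cells in mTeSR1, and on day 4 of differentiation with 50 ng/ml Activin A (RPMI medium, B27 supplement). All groups share the H1 background, and each knockout is 1 clone, so a difference between a clone and WT may belong to the clone. Nothing in the labels says that replicates were separate cultures, and p-values therefore measure the spread between these libraries, which may be technical.

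The respiratory chain passes electrons from NADH, through complex I, and from succinate, through complex II, to ubiquinone, then through complex III and cytochrome c to complex IV, where oxygen is reduced. Complexes I, III and IV pump protons across the inner membrane, and complex V, ATP synthase, uses the gradient to make ATP. Most subunits come from nuclear genes and a small core from mitochondrial DNA; pluripotent stem cells are known for relying heavily on glycolysis although they hold the respiratory complexes.

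Promoters are shown for 4 members because they carry the main patterns below: COX7C, the complex IV gene with the steepest fall at day 4 in WT and KO1; NDUFA9, a complex I gene that rose in every line; SDHD, whose change in KO2 differed from that in WT; and UQCRC1, lower in both clones than in WT at day 4. The sequences are RefSeq windows of 300 bases on GRCh38.p14, from 250 bases before to 50 after the annotated gene start, 5′ to 3′ on the gene's own strand; counts were made on another build, so no count is tied to these positions. Capitals mark matches on either strand to motifs of 3 factors known to act on respiratory genes: NRF1 (GCGCA, any base, then GCGC), the ETS family that includes GABPA (CCGGAAG), and YY1 (AANATGGCG).
COX7C, chr5:86617691-86617990, plus strand: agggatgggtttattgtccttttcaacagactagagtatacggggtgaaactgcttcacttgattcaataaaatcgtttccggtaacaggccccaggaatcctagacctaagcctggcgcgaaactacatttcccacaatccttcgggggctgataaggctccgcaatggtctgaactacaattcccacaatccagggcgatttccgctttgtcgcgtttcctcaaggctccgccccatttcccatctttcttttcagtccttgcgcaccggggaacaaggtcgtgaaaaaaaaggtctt
NDUFA9, chr12:4648864-4649163, plus strand: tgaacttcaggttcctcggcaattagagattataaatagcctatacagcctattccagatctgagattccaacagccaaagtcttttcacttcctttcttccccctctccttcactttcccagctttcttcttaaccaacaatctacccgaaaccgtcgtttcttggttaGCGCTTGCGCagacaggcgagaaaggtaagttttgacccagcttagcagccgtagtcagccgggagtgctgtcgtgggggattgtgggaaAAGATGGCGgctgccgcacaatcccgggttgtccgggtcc
SDHD, chr11:112086623-112086922, plus strand: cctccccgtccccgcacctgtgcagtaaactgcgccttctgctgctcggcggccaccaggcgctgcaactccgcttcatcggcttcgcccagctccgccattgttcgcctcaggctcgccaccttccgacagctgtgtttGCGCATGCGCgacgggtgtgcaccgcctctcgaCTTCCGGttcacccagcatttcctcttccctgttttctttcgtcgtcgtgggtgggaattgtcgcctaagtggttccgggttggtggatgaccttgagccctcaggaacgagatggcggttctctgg
UQCRC1, chr3:48609597-48609896, minus strand: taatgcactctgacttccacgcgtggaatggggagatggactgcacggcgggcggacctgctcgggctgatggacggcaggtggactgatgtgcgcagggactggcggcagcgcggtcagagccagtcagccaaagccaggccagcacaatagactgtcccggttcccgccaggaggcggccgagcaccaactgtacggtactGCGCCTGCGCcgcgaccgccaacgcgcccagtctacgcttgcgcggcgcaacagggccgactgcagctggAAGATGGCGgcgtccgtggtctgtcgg
NDUFA9 and UQCRC1 each hold 1 NRF1 and 1 YY1 match, SDHD holds 1 NRF1 and 1 ETS match, and COX7C holds none of these letters in this window. Of the 79 members, 60 had a promoter in the RefSeq table, and 37 of the 60 (61.7%) held at least 1 of the 3 motifs, against 24.2% of 15843 promoters of protein-coding genes. A window with several motifs counts under each. NRF1 letters stood in 23.3% of member promoters against 8.58% of protein-coding promoters, ETS letters in 31.7% against 14.2%, and YY1 letters in 26.7% against 4.81%. By complex, the NRF1 letters were in 4 of 7 complex III promoters and 0 of 9 complex IV promoters, where the ETS letters were in 5 of 9. Among the 16 matched members that fell in all 3 lines (below), 11 (68.8%) held at least 1 motif. A match is a description of letters, not of binding.

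Libraries held 9942016 to 21394547 counts in features, and the members took 0.624% to 0.885% of them. Levels are given as CPM, counts scaled by TMM to a common library size and not by length, so they compare libraries and not genes. On this scale 3 counts correspond to 0.133 to 0.293 CPM. The 8 pluripotency markers examined summed to between 4228 and 4734 CPM at day 0, and the 7 endoderm markers to between 6.21 and 13.0 CPM. At day 4 the WT libraries reached 4472 to 4870 CPM for the endoderm markers, KO1 reached 4897 to 4971 CPM and KO2 stopped at 830 to 1051 CPM. The pluripotency markers at day 4 lay at 2892 to 3046 CPM for WT, 2805 to 2977 CPM for KO1 and 4054 to 4106 CPM for KO2; none of these 15 markers was at 0 in any group. The endoderm sum is mostly CER1, an early endoderm gene, which gave 3871 to 4184 CPM of it in WT, 4440 to 4531 CPM in KO1 and 764 to 966 CPM in KO2. The other 6 endoderm markers summed to 602 to 687 CPM for WT, 440 to 457 CPM for KO1 and 66.2 to 84.2 CPM for KO2. Marker by marker, both KO1 libraries lay below both WT libraries for 5 of the 7 (SOX17, FOXA2, CXCR4, GATA4 and HHEX), above them for CER1 and overlapped them for GATA6; CXCR4 was at 164 and 139 CPM in WT and 53.1 and 58.1 CPM in KO1. All 7 were lower in both KO2 libraries than in any WT or KO1 library at day 4. Of the 8 pluripotency markers, 7 were higher in both KO2 libraries than in both WT libraries, and TDGF1 was lower; against KO1, 6 were higher, TDGF1 was lower and LIN28B overlapped. DNMT3B alone gave 1558 to 1599 CPM of the KO2 sum, against 963 to 1117 CPM in WT and 840 to 959 CPM in KO1. The shares of all features whose libraries separate in this way are not given here, so these counts of markers cannot be set against a background. In bulk RNA, fewer cells of a type and less RNA per cell cannot be told apart. KO1 day 0 replicate 2 stands apart: its members summed to 7883 CPM against 8369 to 8681 CPM in the other 5 day 0 libraries. In it 64 of 78 members were lower than in KO1 day 0 replicate 1, with a median log2 difference of 0.18. This pair differed beyond the members. Over all features tested its chi-square per gene, which also grows with depth, was 21.8, against 1.89 to 3.88 in the other pairs. In replicates 1 and 2 DNMT3B was at 2078 and 1571 CPM and SOX2 at 226 and 324 CPM. The spread of this pair enters the shared estimate used in every comparison.

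At day 0 the members stood at similar levels in the 3 lines. Their summed level was 8525 ± 220 CPM (SD, n = 2) for WT, 8278 ± 558 CPM for KO1 and 8491 ± 147 CPM for KO2. For KO1 against WT, edgeR's quasi-likelihood test with Benjamini-Hochberg adjustment over 16792 features called 0 of 78 members in either direction (background 0.0596% of all features higher and 0.179% lower), with 1 higher and 2 lower at an unadjusted p under 0.05 and 0 calls by DESeq2. The same count was 11 lower and 1 higher when KO1 day 0 replicate 1 was left out, so that the lower-lying replicate 2 stood alone. For KO2 against WT, edgeR and DESeq2 both called 0 members (background 0.0536% higher and 0.0893% lower), with 0 at an unadjusted p under 0.05. Shares of all features at the unadjusted p, by DESeq2 or without a library are not given here. Those counts cannot be set against a background.

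**Figure D1:**
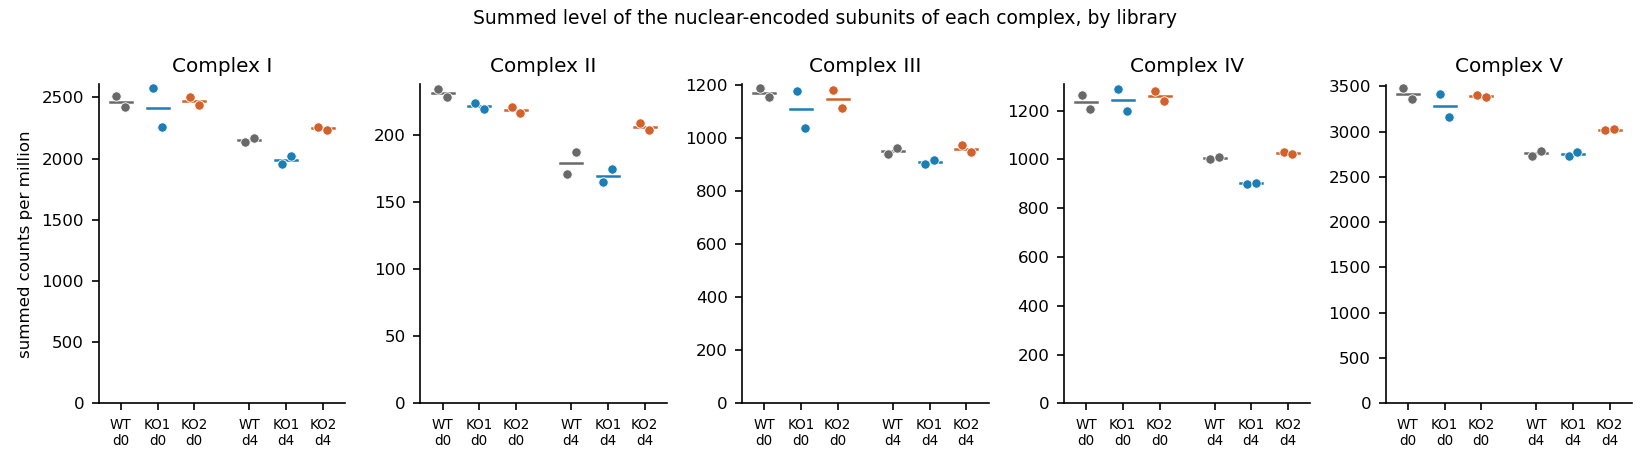
Summed CPM (vertical axis, from 0, a separate scale for each panel) of the tested nuclear-encoded subunits of complexes I to V in WT, KO1 and KO2 at day 0 (d0) and day 4 (d4); dots are the 2 libraries and bars their mean. In each complex and line the day 4 means lie below the day 0 means, from 72.6% of the day 0 mean (complex IV in KO1) to 94.4% (complex II in KO2).

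From day 0 to day 4 the TMM-scaled level of the respiratory chain transcripts fell in each of the 3 lines. Summed over all members, WT libraries went from 8681 and 8369 CPM at day 0 to 6972 and 7114 CPM at day 4, 82.6% of the day 0 mean. KO1 went from 8673 and 7883 CPM to 6652 and 6789 CPM, 81.2% of its day 0 mean. In KO2 the libraries went from 8595 and 8387 CPM to 7487 and 7435 CPM, 87.9% of the day 0 mean. In each line both day 4 libraries lay below both day 0 libraries. The unscaled share of counts also fell, and the size of the fall depends on the scaling. This share went from 0.884% and 0.861% to 0.698% and 0.717% in WT. KO1 went from 0.885% and 0.829% to 0.624% and 0.644%, and KO2 from 0.877% and 0.862% to 0.728% and 0.723%. ATP5A1 and ATP5B supply much of the complex V sum, so the sums follow the abundant members.

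Gene by gene, in WT 33 of 78 members were lower and 6 higher at day 4 (background 25.4% of all features lower and 24.3% higher), with a median log2 fold change of -0.20. In KO1, 42 were lower and 3 higher (background 29.3% and 29.1%), with a median of -0.26. KO2 had 26 lower and 4 higher (background 25.7% and 25%), with a median of -0.18. The median over all features tested was between -0.004 and 0.00 in these comparisons. Most changes were small: in WT only COX7A1 passed a 2-fold change among the called members. The counts below come without the share of all features under the same setting, so they cannot be set against a background. The count of lower members in WT was 20 without WT day 4 replicate 1 and 21 without WT day 0 replicate 1. In KO1 it was 27 without KO1 day 4 replicate 1. For KO2 the count was 15 without KO2 day 0 replicate 1 and 16 without KO2 day 4 replicate 1. Leaving out KO1 day 0 replicate 2 raised the KO1 count to 51.

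The 3 day comparisons share no libraries. Called lower in all 3 lines were 19 of 78 members (24.4%), against 15.9% of all features tested, and called higher in all 3 were 2 members (2.56%), NDUFA9 and NDUFC2, against 13.8%. No member was called lower in one line and higher in another. The estimate was below 0 in every line for 53 members (67.9%), against 34.6% of all features. By complex, 8 of 37 complex I members, 0 of 4 in complex II, 5 of 10 in complex III, 4 of 11 in complex IV and 2 of 16 in complex V were lower in all lines. Of the 19, 8 kept their call in all lines under each of the alternative settings tried, among them NDUFA3, UQCR10, UQCRC2, COX5A, COX7C, ATP5A1 and ATP5G2. The other 11 lost it in at least 1 line under at least 1 setting.

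**Figure D2:**
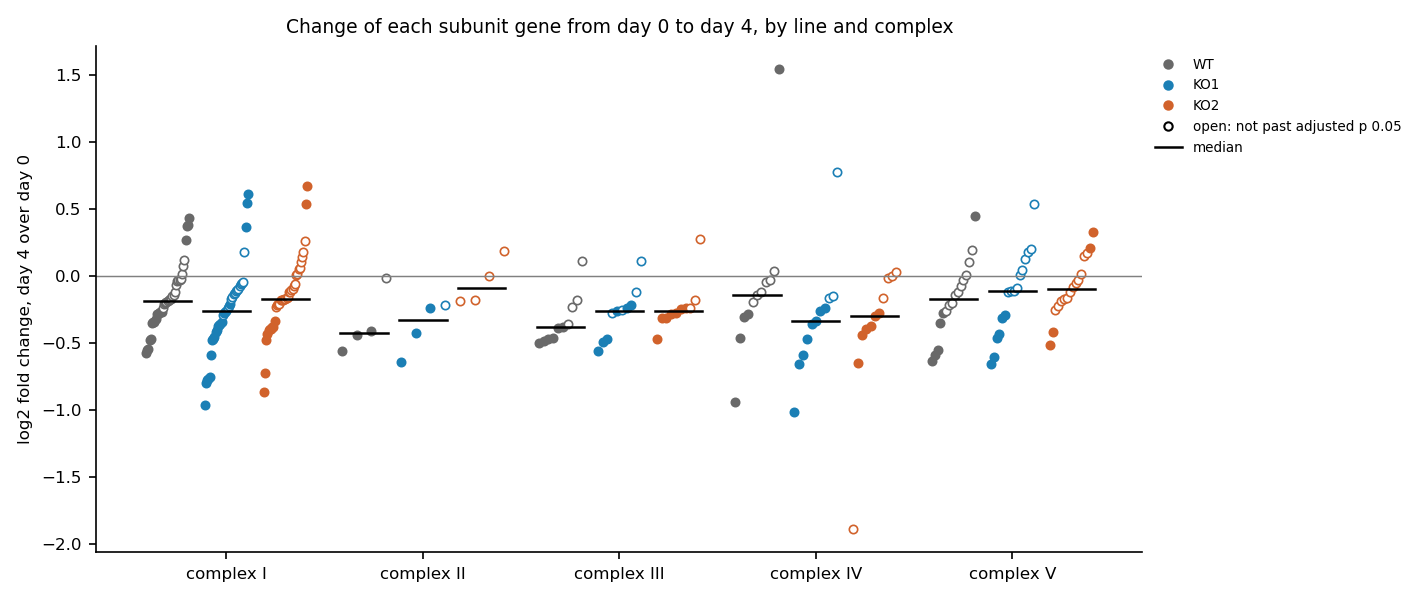
Log2 fold change from day 0 to day 4 (vertical axis) of each tested member, grouped by complex and colored by line, ordered by value within a strip; filled points passed an adjusted p of 0.05 and black bars are medians. The medians of all 15 strips lie below 0, and complex II in KO2, a strip of only 4 genes, is the strip with no filled point.

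Complex I takes electrons from NADH. In WT 15 of its 37 members were lower and 4 higher, in KO1 19 and 3, and in KO2 11 and 2. The shares lower were 40.5%, 51.4% and 29.7%, over a background of 25.4%, 29.3% and 25.7%, so the KO2 share is near the background. Among its 7 core subunits, which carry the flavin and iron-sulfur clusters, 5 were lower in WT, 5 in KO1 and 3 in KO2, and 0 were higher in any line. In the NADH module, 4 of 8 were lower in WT, 6 in KO1 and 3 in KO2; in the ubiquinone module 3 of 8 were lower in each line.

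NDUFA3, a small accessory subunit, went from 46.3 and 44 CPM to 28.8 and 31.5 CPM in WT, a log2 fold change of -0.58. The same gene changed by -0.78 in KO1 and -0.73 in KO2. NDUFS7 and NDUFS8, which hold the iron-sulfur clusters nearest the ubiquinone site, were also lower in all lines. NDUFS8 changed by -0.27 in WT, -0.80 in KO1 and -0.43 in KO2. Its WT call (edgeR adjusted p = 0.0472) ended under 12 of the alternative settings and its KO2 call under 1. NDUFS7 changed by -0.48 in WT, -0.97 in KO1 and -0.87 in KO2, and its WT day 0 libraries lay apart at 37.4 and 23.8 CPM; the WT call ended without replicate 1 of that pair or 1 of the WT day 4 libraries. Another accessory subunit, NDUFS6, changed by -0.55, -0.40 and -0.40 in WT, KO1 and KO2. These calls ended under 1, 4 and 4 of the alternative settings. The KO1 day 0 libraries of NDUFS6 lay apart at 90.1 and 60.4 CPM, and its KO1 estimate ranged from -0.66 to -0.087 over the alternatives.

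A few complex I genes went the other way. NDUFA9, an accessory subunit beside the ubiquinone module, was at 57.8 and 51.8 CPM in WT at day 0 and 71.7 and 69.5 CPM at day 4. In KO1 it was at 55.7 and 37.8 CPM, then 72.1 and 70.4 CPM. KO2 had 53.4 and 52.8 CPM, then 79.8 and 88.6 CPM. Every day 4 library was above every day 0 library, and the log2 fold changes were 0.37 ± 0.14 in WT (± SE, here and for log2 values below; edgeR adjusted p = 0.034), 0.61 ± 0.13 in KO1 (0.00108) and 0.67 ± 0.14 in KO2 (0.000866). The WT call for NDUFA9 ended without WT day 4 replicate 1 or 2, without WT day 0 replicate 2 and under upper-quartile factors (adjusted p = 0.0574). NDUFC2, a membrane-arm subunit, rose by 0.43, 0.54 and 0.53 in WT, KO1 and KO2; its WT call ended when WT day 4 replicate 1 was left out (edgeR adjusted p = 0.0713). NDUFB3 rose by 0.38 in WT and 0.36 in KO1, and did not pass in KO2, where it was at 16.1 and 18.6 CPM at day 0 and 19.6 and 17.6 CPM at day 4. Its WT call ended with WT day 0 replicate 2 left out (edgeR adjusted p = 0.0662) and with WT day 4 replicate 1 left out (0.0781). Its KO1 call ended with either KO1 day 4 library left out (0.0562 and 0.0569) and with only the groups compared in the fit (0.0575). NDUFA4, long listed with complex I and now placed in complex IV, fell by 0.27 in WT and by 0.37 in KO1, and was not called in KO2.

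Complex II, succinate dehydrogenase, is also an enzyme of the tricarboxylic acid cycle and is built wholly from nuclear genes. At day 4, 3 of its 4 genes were lower in the WT cells and 3 in the KO1 clone. For KO2 edgeR called 0 of 4, with 0 at an unadjusted p under 0.05 and a lowest adjusted p of 0.144. The background was 25.4%, 29.3% and 25.7% of all features lower in WT, KO1 and KO2. A set of 4 genes is too small to set the KO2 count apart from it. SDHA, the flavoprotein that oxidizes succinate, was at 80.5 and 64.5 CPM in WT at day 0 and 52.8 and 55.6 CPM at day 4. Its KO1 libraries went from 73.1 and 70.7 CPM to 43.9 and 48.1 CPM, and its KO2 libraries from 74.7 and 69.7 CPM to 65.2 and 61.6 CPM. The groups did not overlap in any line, and SDHA fell by 0.41 ± 0.10 in WT (edgeR adjusted p = 0.00353) and by 0.64 ± 0.10 in KO1 (adjusted p = 7.34e-05). The WT call for SDHA ended without WT day 0 replicate 1.

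SDHB, the iron-sulfur subunit, went from 73.0 and 71.7 CPM to 43.4 and 54.3 CPM in WT, a fall of 0.56 on the log2 scale. SDHB was not called in KO1 (66.2 and 57.1 CPM, then 51.6 and 54.3 CPM) or in KO2 (66.0 and 66.6 CPM, then 62.8 and 54.4 CPM). SDHC, a membrane anchor, fell by 0.24 in KO1 and passed in neither other line. SDHD, the other anchor, was at 33.8 and 39.0 CPM in WT at day 0 and 25.4 and 28.3 CPM at day 4. KO1 had 34.3 and 40.5 CPM, then 27.8 and 28.0 CPM. In KO2 the day 4 libraries lay above the day 0 libraries, at 34.1 and 37.6 CPM against 30.8 and 32.5 CPM, and the change was not called. SDHD fell by 0.44 ± 0.12 in WT (edgeR adjusted p = 0.00479) and by 0.43 ± 0.11 in KO1 (adjusted p = 0.00436), and its change in KO2 exceeded that in WT by 0.63 ± 0.16 on the log2 scale (adjusted p of the interaction = 0.0188). The WT call for SDHD ended without WT day 0 replicate 2 and without WT day 4 replicate 1; the interaction also ended without 1 of the KO2 day 0 libraries or KO2 day 4 replicate 2.

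Complex III passes electrons from ubiquinol to cytochrome c. Of its 10 members, 6 were lower in WT, 6 in KO1 and 7 in KO2 (60%, 60% and 70%, above the background in each line), with 0 higher. UQCRC2, a core protein of the matrix side, went from 174 and 176 CPM to 119 and 134 CPM in WT, from 177 and 177 CPM to 125 and 130 CPM in KO1, and from 184 and 175 CPM to 146 and 142 CPM in KO2. The log2 fold changes of UQCRC2 were -0.46, -0.47 and -0.31, with SE near 0.08 in each line. UQCR10, a small subunit, changed by -0.47, -0.56 and -0.47. UQCRH, the hinge protein beside cytochrome c1, changed by -0.49 in WT, -0.22 in KO1 and -0.29 in KO2, and its near copy UQCRHL by -0.50, -0.24 and -0.24; the counts of this pair may share reads. UQCRFS1, the Rieske iron-sulfur protein, fell by 0.39 in WT and was called in neither clone.

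Complex IV reduces oxygen. In WT 4 of its 11 members were lower and 1 higher, in KO1 8 and 0, and in KO2 6 and 0. The shares lower were 36.4%, 72.7% and 54.5%, over a background of 25.4%, 29.3% and 25.7%. COX7C, a small membrane subunit, was at 257 CPM in both WT libraries at day 0 and 131 and 137 CPM at day 4. KO1 had 253 and 243 CPM, then 124 and 121 CPM. KO2 had 255 and 243 CPM, then 162 and 155 CPM. The day 4 libraries lay below the day 0 libraries without overlap, and both KO2 day 4 libraries lay above those of WT and KO1. COX7C fell by 0.94 ± 0.07 in WT (edgeR adjusted p = 3.38e-08), by 1.02 ± 0.07 in KO1 (adjusted p = 9.97e-09) and by 0.65 ± 0.07 in KO2 (adjusted p = 2.46e-06).

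COX5A, a matrix-side subunit, fell by 0.47 in WT, 0.59 in KO1 and 0.30 in KO2. COX5B fell by 0.31, 0.66 and 0.40 in the same order. COX4I1, the common form of the largest nuclear subunit, fell by 0.26 in KO1, was called in neither other line, and its interactions did not pass; the KO1 call ended without KO1 day 0 replicate 1 or either KO1 day 4 library. COX7A2, the form of subunit VIIa found in most tissues, fell by 0.24 in KO1 (not called without KO1 day 0 replicate 2 or KO1 day 4 replicate 1) and stood at 99.1 and 107 CPM in WT at day 0 and 98.1 and 104 CPM at day 4. COX7A1, the form typical of heart and skeletal muscle, was near the detection limit, with 7 and 6 counts in the WT day 0 libraries and 21 and 24 counts at day 4, or 0.677 and 0.423 CPM, then 1.60 and 1.54 CPM. It rose by 1.54 ± 0.44 on the log2 scale in WT (edgeR adjusted p = 0.00827), a call that ended without WT day 0 replicate 2 and under DESeq2. COX7A1 passed the filter on low counts mainly through the WT day 4 libraries. The 6 muscle markers examined summed to 62.2 to 91.8 CPM over the 12 libraries, with WT at 68.2 and 79.5 CPM at day 0 and 69.0 and 81.7 CPM at day 4. Most of this sum was ACTN2, at 55.0 and 47.5 CPM in WT at day 0 and 70.9 and 59.2 CPM at day 4. TNNT2 went the other way in WT, from 17.1 and 14.7 CPM to 4.19 and 3.73 CPM. MYH7, MYH6, MYOD1 and MYOG each stayed at or below 4.45 CPM in the WT libraries.

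Complex V makes ATP. In WT 5 of its 16 tested members were lower and 1 higher, in KO1 6 and 0, and in KO2 2 and 2. The shares lower were 31.2%, 37.5% and 12.5%, and that of KO2 was below the background of 25.7%. ATP5A1, the alpha subunit of the catalytic head, was at 976 and 946 CPM in WT at day 0 and 618 and 656 CPM at day 4, from 958 and 923 CPM to 614 and 623 CPM in KO1, and from 959 and 959 CPM to 672 and 666 CPM in KO2. Its log2 fold changes were -0.59, -0.60 and -0.52, each with an SE of 0.06. ATP5B, the beta subunit with the catalytic sites, fell by 0.28 in WT (from 1210 and 1140 CPM to 953 and 983 CPM) and was called in neither clone.

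The c ring of ATP synthase is encoded by 3 genes, ATP5G1, ATP5G2 and ATP5G3, whose products are cut to the same mature protein. ATP5G2 went from 244 and 227 CPM to 152 and 151 CPM in WT, a fall of 0.64 ± 0.08 on the log2 scale (edgeR adjusted p = 7.08e-06). It fell by 0.66 in KO1 and by 0.42 in KO2. ATP5G1 fell by 0.55 in WT and by 0.47 in KO1 and was not called in KO2. ATP5G3 was not called in any line, with 242 and 231 CPM in WT at day 0 and 213 and 215 CPM at day 4. ATP5H, the d subunit of the stalk that holds the head in place, rose by 0.45 in WT and by 0.32 in KO2. It was not called in KO1, where the day 0 libraries lay at 96.3 and 111 CPM and the day 4 libraries at 118 and 116 CPM.

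**Figure D3:**
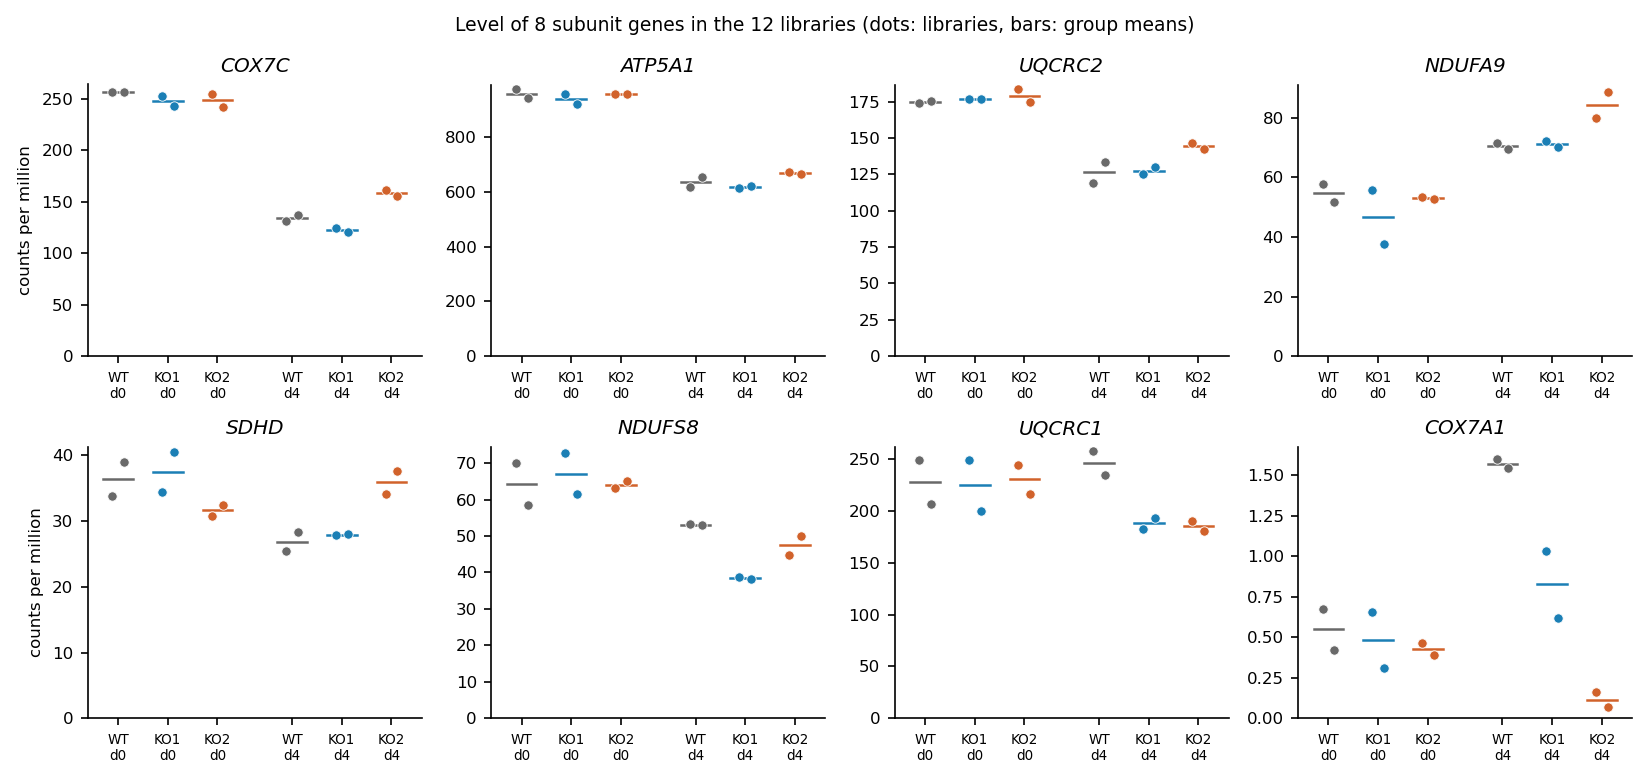
CPM (vertical axes, from 0) of 8 members in WT, KO1 and KO2 at day 0 (d0) and day 4 (d4); dots are libraries, bars group means. COX7C, ATP5A1 and UQCRC2 drop at day 4 in every line, NDUFA9 rises, SDHD drops in WT and KO1 but not in KO2, and UQCRC1 at day 4 lies at 258 and 234 CPM in WT against 181 to 193 CPM in the clones.

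At day 4 the clones were compared with WT; the 2 comparisons share the WT libraries. In KO1, 6 of 78 members were lower and 0 higher (background 9.42% of all features lower and 10.5% higher), with a median log2 fold change of -0.08. DESeq2 called 5 lower and 0 higher, and at an unadjusted p under 0.05 edgeR had 18 lower and 0 higher. The shares of all features by DESeq2 or at the unadjusted threshold are not given here. These counts therefore cannot be set against a background. In KO2, 8 were higher and 3 lower (background 13.5% and 14.5%), with a median of 0.04. In this fit the shares of members called were thus below those of all features in both clones. UQCRC1 was the member called lower in both.

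**Figure D4:**
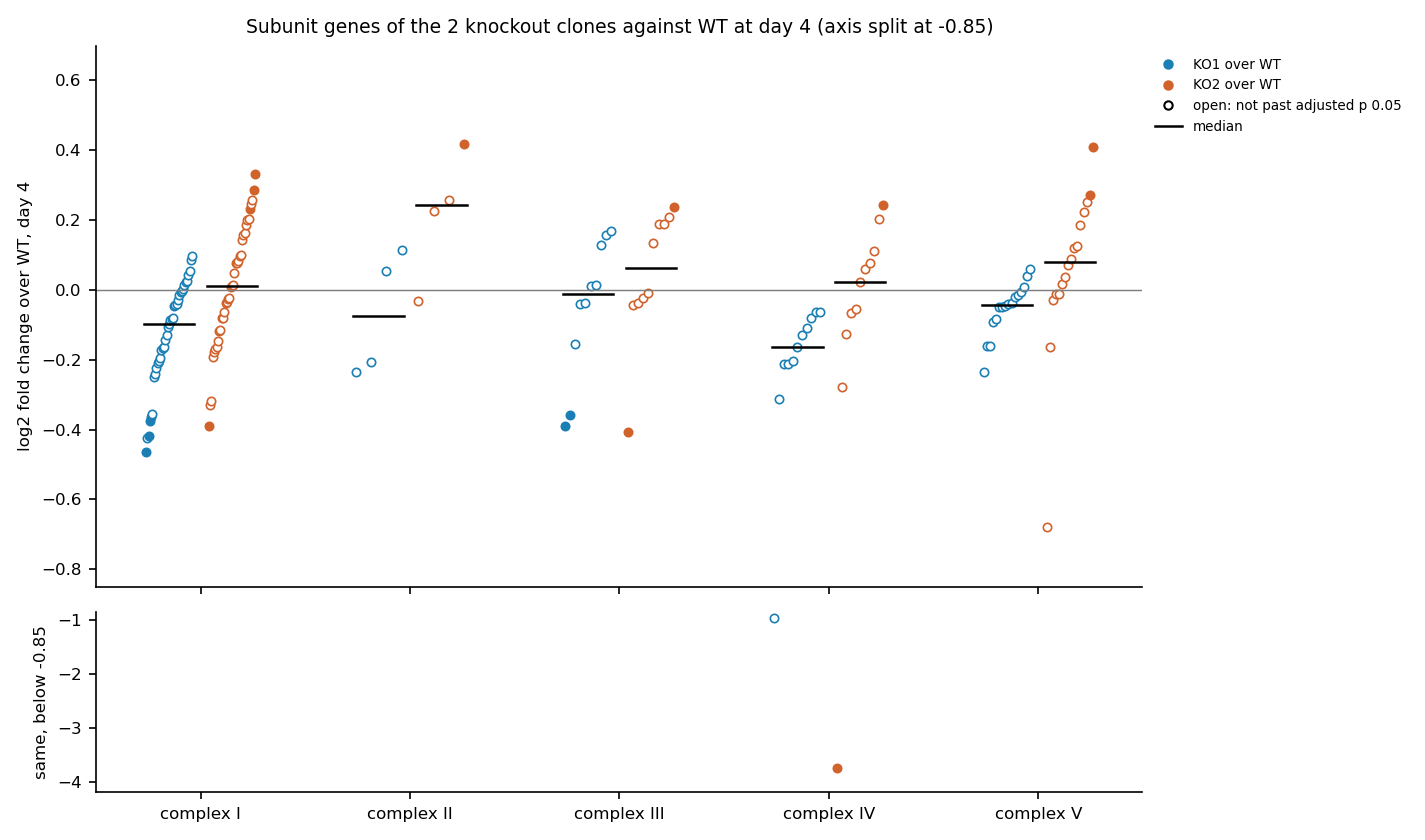
Log2 fold change of each tested member in KO1 and KO2 over WT at day 4, by complex, ordered by value within a strip; the vertical axis is split, with a coarser scale in the lower panel. Filled points passed an adjusted p of 0.05 and black bars are medians; the filled KO1 points all lie below 0, and the isolated low KO2 point is COX7A1 at -3.74.

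These calls rested on few libraries. The counts below come without the share of all features under the same setting, so they cannot be set against a background. With 1 of the KO1 day 0 libraries left out, which enter only through the shared estimate of spread, 19 members were lower in KO1. With 1 of the KO1 day 4 libraries left out 0 were lower, and with 1 of the WT day 4 libraries left out 2 were. In KO2, the count higher was 19 without 1 of the KO1 day 0 libraries, 4 without 1 of the KO2 day 0 libraries, 0 without WT day 4 replicate 1 or KO2 day 4 replicate 2, 1 without KO2 day 4 replicate 1 and 5 without WT day 4 replicate 2. The count lower in KO2 was 6 without 1 of the KO1 day 0 libraries and 1 without WT day 4 replicate 1 or KO2 day 4 replicate 2. All 6 KO1 calls and 10 of the 11 KO2 calls ended under at least 1 of the settings. The COX7A1 call in KO2 did not end. This gene passed the filter on low counts mainly through WT day 4 (21 and 24 counts), the group where it was highest. The stability of its call is therefore not independent support.

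In KO1 the lower members were 4 of complex I and 2 of complex III. Most of the endoderm markers other than CER1 were also lower in KO1 than in WT at day 4, as given above, and their part in these differences was not tested. NDUFS8 was at 53.3 and 53.0 CPM in WT and 38.9 and 38.1 CPM in KO1 at day 4, without overlap, 0.47 ± 0.11 lower on the log2 scale (edgeR log2 fold change -0.47, adjusted p = 0.00759). At day 0 its WT libraries held 69.9 and 58.5 CPM and its KO1 libraries 72.8 and 61.4 CPM. The change of NDUFS8 from day 0 to day 4 in KO1 differed from that in WT by -0.53 ± 0.15 (edgeR interaction, adjusted p = 0.0377). NDUFB7, NDUFV3 and NDUFA8, accessory subunits of complex I, had log2 fold changes of -0.42, -0.38 and -0.36 in KO1. UQCR11, a small complex III subunit, was at 56.9 and 59.7 CPM in WT and 45.1 and 45.8 CPM in KO1, a log2 fold change of -0.36.

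UQCRC1, a core protein of complex III, was at 258 and 234 CPM in WT at day 4, 182 and 193 CPM in KO1 and 190 and 181 CPM in KO2. Both clones lay below both WT libraries, with log2 fold changes of -0.39 ± 0.11 in KO1 (edgeR adjusted p = 0.0212) and -0.41 ± 0.11 in KO2 (adjusted p = 0.0119). The KO1 call ended without WT day 4 replicate 1 or either KO1 day 4 library, and the KO2 call without WT day 4 replicate 1 or KO2 day 4 replicate 2. At day 0 UQCRC1 ranged from 200 to 249 CPM over the 6 libraries, and no interaction was called.

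In KO2 the higher members came from every complex. The endoderm and pluripotency marker sums given above also set KO2 apart from WT at day 4, and their part in these differences was not tested. SDHD was 0.42 ± 0.11 higher than in WT on the log2 scale (edgeR adjusted p = 0.0131), with the libraries given above. ATP5G1 was at 28.8 and 34.3 CPM in WT and 41.5 and 42.4 CPM in KO2, a log2 fold change of 0.41. ATP5G2 was at 152 and 151 CPM in WT and 183 and 182 CPM in KO2, a log2 fold change of 0.27. In complex I, NDUFA5, NDUFV2 and NDUFS1 were higher by 0.33, 0.29 and 0.23. COX7C and UQCRHL were each 0.24 higher. NDUFB3 was lower, at 19.6 and 17.6 CPM against 25.4 and 23.4 CPM in WT, a log2 fold change of -0.39.

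COX7A1 gave the widest gap, but it passed the filter on low counts mainly through the WT day 4 libraries. The tests and ratios against WT day 4 below therefore describe a gene let in by its high group. KO2 at day 4 held 2 and 1 counts in its libraries against 21 and 24 in WT and 12 and 9 in KO1. Scaled to library size, the level in WT was 14.4 times that in KO2, with a 95% counting interval of 4.61 to 72.2 that covers counting error only. The level in KO1 was 7.34 times that in KO2 (interval 2.19 to 38.4). At day 0 KO2 held 5 and 4 counts, and the ratio of that level to the day 4 level was 3.94 (interval 0.982 to 22.6). The difference between the changes in KO2 and WT passed the interaction test (log2 -3.44 ± 0.93, edgeR adjusted p = 0.0226; DESeq2 adjusted p = 0.0767).

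KO2 was also compared with KO1 at day 4. There, 14 members were higher in KO2 and 1 lower, COX7A1 (background 10.8% of all features higher and 14.3% lower), with a median log2 fold change of 0.14. SDHA was higher by 0.46 ± 0.10 (edgeR adjusted p = 0.00439), ATP5G1 by 0.50, NDUFV2 by 0.38, COX7C and COX5A by 0.37 each and SDHD by 0.36. The count higher was 2 without KO1 day 4 replicate 1, 5 or 6 without any 1 of the other 3 libraries compared, and 28 or 29 without a KO1 day 0 library; DESeq2 called 9. COX7C was the only member whose call held under all these settings. The shares of all features under these settings are not given here, so the counts cannot be set against a background. As described above, KO2 at day 4 held 830 to 1051 CPM of endoderm markers against 4897 to 4971 CPM in KO1, and 4054 to 4106 CPM of pluripotency markers against 2805 to 2977 CPM; their part in these differences was not tested.

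Tests of whether a clone's change from day 0 to day 4 differed from that of WT called few members. For KO1, NDUFS8 alone was called, lower (background 5% of all features higher and 4.81% lower). For KO2, SDHD was called higher and COX7A1 lower (background 6.37% and 7.5%). At an unadjusted p under 0.05, KO1 had 4 members higher and 8 lower and KO2 had 12 higher and 4 lower. The shares of all features at this unadjusted threshold are not given here, so these counts cannot be set against a background.

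**Figure D5:**
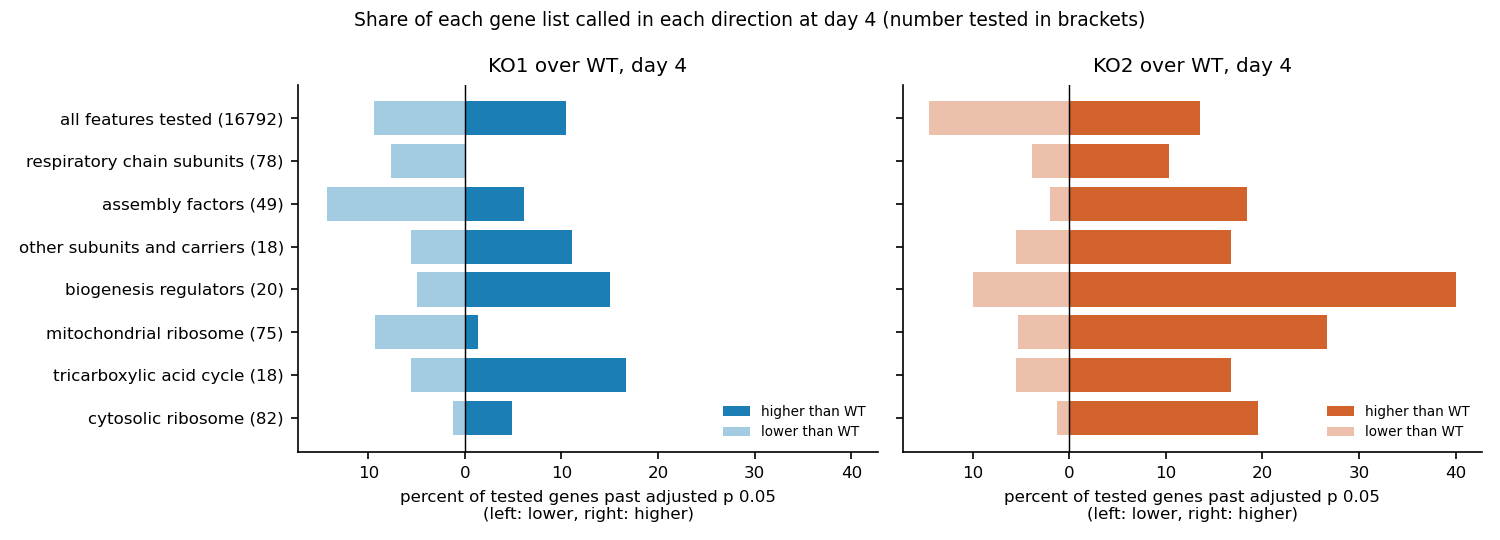
Percent of the tested genes of each list that passed an adjusted p of 0.05 in KO1 (left) and KO2 (right) against WT at day 4, with calls lower than WT drawn to the left of 0 and calls higher to the right; numbers in brackets are genes tested. In KO2, 20 of 75 mitochondrial ribosome genes and 8 of 20 biogenesis regulators were higher, against 8 of the 78 subunits; over all features 13.5% were higher and 14.5% lower in KO2, and 10.5% and 9.42% in KO1.

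Other mitochondrial gene lists are described by their counts, and differences between lists were not tested. Over all features, the shares higher from day 0 to day 4 were 24.3%, 29.1% and 25% for WT, KO1 and KO2, and the shares lower 25.4%, 29.3% and 25.7%. Against WT at day 4 the shares higher were 10.5% and 13.5% for KO1 and KO2, and the shares lower 9.42% and 14.5%. Among 18 further subunits and electron carriers, 3 were higher and 6 lower (33.3%) in WT at day 4. CYCS, cytochrome c itself, was higher than in WT in both clones at day 4, by 0.65 ± 0.09 in KO1 (edgeR adjusted p = 0.000232) and by 0.68 ± 0.09 in KO2 (adjusted p = 8.07e-05). ETFB, a subunit of the flavoprotein that brings electrons from fatty acid oxidation, was lower in KO2, with a log2 fold change of -0.78. DHODH, the pyrimidine synthesis enzyme that feeds electrons to ubiquinone, was lower in KO1, with a log2 fold change of -0.52.

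Of 49 assembly factors, 2 were higher and 16 lower in WT from day 0 to day 4, 6 and 16 in KO1, and 12 and 10 in KO2, which made 32.7%, 32.7% and 20.4% lower. BCS1L, which inserts the Rieske protein into complex III, rose by 0.95, 0.81 and 0.95 in WT, KO1 and KO2. ECSIT, a complex I assembly factor, fell by 0.99 in WT and by 0.93 in KO2. In KO1 ECSIT went from 53.8 and 51.9 CPM to 33.0 and 32.0 CPM. At day 4, 9 of the 49 were higher (18.4%) and 1 lower in KO2 than in WT, and 3 higher and 7 lower (14.3%) in KO1. CHCHD2, the member of this list called at day 0, was higher in KO1 by 0.96 and in KO2 by 0.98, and at day 4 by 1.79 and 1.87.

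The 20 regulators of mitochondrial biogenesis tested include coactivators, transcription factors and the machinery of mitochondrial DNA. In WT 1 was higher and 7 lower at day 4, in KO1 5 and 7, and in KO2 9 and 5, which made 35%, 35% and 25% lower. Against WT at day 4, 8 of the 20 (40%) were higher and 2 lower in KO2. PPARGC1B, a coactivator of respiratory genes, fell by 1.43 ± 0.12 in WT (edgeR adjusted p = 1.25e-07) and by 0.93 in KO1, and at day 4 was 0.39 higher in KO1 and 1.09 higher in KO2 than in WT. TFAM, which packages and transcribes mitochondrial DNA, rose by 0.74 in KO2 from day 0 to day 4. In KO1 TFAM went from 112 and 108 CPM to 141 and 137 CPM. In KO2 it went from 104 and 108 CPM to 176 and 177 CPM, and in WT from 111 and 127 CPM to 115 and 113 CPM. Its change in KO1 exceeded that in WT by 0.40 (edgeR interaction, adjusted p = 0.0342). The interaction value for KO2, where TFAM rose more than in KO1, is not printed here. NFE2L2, a regulator of the oxidative stress response, rose by 0.91, 1.14 and 0.70 in WT, KO1 and KO2.

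In the tricarboxylic acid cycle and pyruvate dehydrogenase, 2 of 18 genes were higher and 12 lower in WT at day 4, 4 and 9 in KO1, and 2 and 9 in KO2, which made 66.7%, 50% and 50% lower. IDH2, the mitochondrial NADP-dependent isocitrate dehydrogenase, fell by 1.96, 1.35 and 1.59 in WT, KO1 and KO2. SUCLG2 and SUCLG1 encode partners in succinyl-CoA ligase; SUCLG2 fell by 0.98, 1.09 and 0.84, while SUCLG1 rose by 0.50, 0.58 and 0.49. Against WT at day 4, 3 of the 18 were higher (16.7%) and 1 lower in each clone.

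Mitochondrial ribosome genes, which serve translation of the mitochondrially encoded subunits, had 8 of 75 higher and 15 lower in WT at day 4, 8 and 16 in KO1, and 17 and 8 in KO2, so the shares lower (20%, 21.3% and 10.7%) were below those of all features. At day 4, 20 were higher (26.7%) and 4 lower in KO2 than in WT, and 1 higher and 7 lower in KO1, where the share lower (9.33%) is near the background. Cytosolic ribosome genes, a comparison of short abundant transcripts, had 2 of 82 higher and 36 lower in WT from day 0 to day 4, against 4 and 25 for KO1 and 9 and 14 for KO2, which made 43.9%, 30.5% and 17.1% lower. At day 4, 16 were higher (19.5%) and 1 lower in KO2 than in WT. The mitochondrially encoded subunits are not analysed here.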

How the data were processed

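RNA-seq counts per feature for 12 libraries were deposited by the authors, who aligned reads with Bowtie2 2.1.0 to hg19 and counted them with HTSeq 0.6.1, per the submitters' processing notes. Libraries came from a stranded poly(A) kit and RNA with a RIN above 9, per the labels' protocols; the sources used here do not give the strand setting or annotation of the counting. RefSeq (GRCh38.p14) shows 34 of the 79 members overlapping another gene, whose reads may not be separable. Reads outside features (29.2% to 30.5% of a library), of low mapping quality (19.3% to 22.2%), ambiguous (1.17% to 1.41%) or not aligned (0.115% to 0.171%) were left out of totals. The 8 ChIP-seq samples are not analysed here.

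Counts were scaled by TMM in edgeR 4.0.16 (R 4.3.3), filtered with filterByExpr (16792 features left) and fitted with edgeR's quasi-likelihood model on all 12 libraries in 6 groups (6 residual degrees of freedom; two-sided; Benjamini-Hochberg over 16792 features; threshold 0.05). SE is the size of each log2 fold change over the root of its F statistic. There were 10 comparisons. Alternatives were DESeq2 1.42.0, RLE and upper-quartile factors, no filter, only the groups compared, a replicate block and each library left out; leaving out both KO1 day 0 libraries was added after seeing the data. The fit was tested on simulated counts. Figures were drawn with matplotlib 3.10.9.

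The gene set and the lists were proposed with earlier results of these data known, although the rule for members reads only symbols. Named in each comparison are the called members with the largest change, 2 each way per complex, the SDH, ATP5G, COX7A and main catalytic genes whatever their values, and the 2 largest called each way of the other lists, of which the text prints a part; members named outside this rule were picked after their values were seen. A result that rests on a withheld item is not reported here.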

Additional observations from a re-analysis of the deposited data

Results flagged for a closer look

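For 3 members the change from day 0 to day 4 differed between a clone and WT by edgeR's interaction test. NDUFS8 fell more in KO1 than in WT, with a difference of -0.53 on the log2 scale (adjusted p = 0.0377, and 0.00096 to 0.158 over the alternatives). SDHD changed by 0.63 more in KO2 than in WT (adjusted p = 0.0188, and 0.00159 to 0.12). COX7A1 differed by -3.44 between KO2 and WT (adjusted p = 0.0226, and 0.00743 to 0.122), on 1 to 24 counts a library. Each of the 3 calls ended without WT day 0 replicate 2 or WT day 4 replicate 1, among other libraries. With 2 libraries a group, no library could be tested as an outlier within its group. COX7A1 passed the filter on low counts mainly through WT day 4, the group where it was highest.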

How the results depend on the processing

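No result for a called member reversed its direction under any alternative run. Of the 19 members lower in all 3 lines, 9 to 19 stayed so when 1 library was left out, and of the 2 higher, 0 to 2. Counts of lower members from day 0 to day 4 ranged over the left-out libraries from 20 to 39 in WT, 27 to 51 in KO1 and 15 to 33 in KO2, and counts of higher members from 2 to 6, 2 to 7 and 2 to 8. At day 4 the ranges were 0 to 19 lower for KO1 against WT, 0 to 19 higher and 1 to 6 lower for KO2 against WT, and 2 to 29 higher and 0 to 2 lower for KO2 against KO1. At day 0 KO1 against WT ranged from 0 to 1 higher and 0 to 11 lower. The interaction counts ranged from 0 to 7 higher and 0 to 8 lower in KO1 and from 0 to 12 higher and 0 to 4 lower in KO2. With only the groups compared in the fit, the KO1 day count was 25 lower, the KO2 day count 8 higher and 42 lower, KO1 against WT at day 4 18 lower, KO2 against WT 19 higher and 7 lower, KO2 against KO1 36 higher, the KO1 interaction 0 lower and the KO2 interaction 10 higher and 3 lower. Without both KO1 day 0 libraries, the KO2 day count was 8 higher, KO1 against WT at day 4 20 lower, KO2 against WT 19 higher and 6 lower, KO2 against KO1 28 higher and 2 lower, and the KO2 interaction 12 higher and 4 lower. DESeq2 gave 5 higher for KO2 against WT at day 4, 9 higher for KO2 against KO1 and 0 lower for the KO2 interaction. With no filter on low counts, the interactions had 2 lower in KO1 and 2 higher and 3 lower in KO2. The cause of these shifts was not tested. The shares of all features called under these settings are not given here, so the counts cannot be set against a background.

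Within each group the log2 CPM difference of replicate 1 minus replicate 2 was taken for every feature tested. Over 15 pairs of groups, the correlation of these differences between 2 groups lay between -0.04 and 0.155, and 1 was over 0.1. Whether the replicate numbers of the labels pair the samples was not tested. With the replicate number as a block, KO1 against WT at day 4 had 10 lower, the KO2 interaction 2 higher and 2 lower, and KO2 against WT at day 4 12 higher and 4 lower.

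Other scaling factors moved the share of higher calls over all features by no more than 7.3 percentage points. Counted over complexes, groups and settings (unscaled totals, RLE or upper-quartile factors), 34 summed CPM values moved by at least the SD of their 2 libraries. The other 56 moved by less. COX7A1 and ATP5EP2 rest on few counts.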
